A study of Mus musculus with 3 samples.

Results

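The enzymes that turn ammonia into urea and move nitrogen through glutamine were followed in mouse cells as 9 genes: Nags, Cps1, Otc, Ass1, Asl, Arg1, Arg2, Glul and Gls2. They were chosen by name, as every array probe whose transcript accession maps to 1 of these symbols, which gave 11 probes for 9 of 20573 named genes. The groups were iHep, hepatocyte-like cells made from spleen fibroblasts with the lentivirus LV-3TF, PH, freshly isolated primary mouse hepatocytes, and MF, the SiO2-remodelled spleen fibroblasts carrying the control lentivirus LV-NC. Both cultured groups were collected at day 14 after transduction, and PH served as the positive control. All samples are labelled female, the fibroblasts came from mouse spleens remodelled with SiO2 (silica), and the labels used here name neither strain, age nor the factors of LV-3TF. RNA of 5 samples was pooled per group and hybridised to 1 one-colour array, so no difference below has a replicate check, no test was possible, and "higher" and "lower" describe these 3 arrays.

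The urea cycle detoxifies ammonia and is complete in the liver, chiefly in hepatocytes around the portal vein. In the mitochondrion Nags makes the activator of Cps1, Cps1 joins ammonia and bicarbonate into carbamoyl phosphate, and Otc passes that group to ornithine to give citrulline. In the cytosol Ass1 and Asl make arginine, which many cell types also do, and Arg1 splits arginine into urea and ornithine. Arg2 is the mitochondrial arginase found mostly outside the liver. Gls2, the liver-type glutaminase, releases ammonia from glutamine beside the urea cycle, and Glul, glutamine synthetase, recaptures ammonia in the hepatocytes around the central vein.

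A level here is the log2 processed spot signal minus that of the array's 75th percentile, so 0 is a bright spot and each unit is a doubling. That percentile was 3752 on the iHep array, 2081 on PH and 544.3 on MF, which made the MF array the dimmest. Of the named genes 16357 were well above background in iHep, 17375 in PH and 14992 in MF, by the scanner software's own call. The software's error of a bright spot was 0.14 log2 units, probes printed 10 times had a median spot SD between 0.055 and 0.071, and different probes of a gene disagreed by a pooled SD of 0.84 log2 units between iHep and MF, 1.11 between PH and MF, and 1.09 between iHep and PH. The iHep and PH arrays were scanned at the same time and MF at another, so a difference from MF and a difference between scans cannot be told apart. Where normexp is named, the levels were recomputed from raw median signals with that model-based background correction.

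The labelled cell types were checked on marker lists. Hepatocyte markers (Alb, Ttr, Apoa1, Tat, Hnf4a and Fgb) were above background for 5 of 6 in iHep, 6 of 6 in PH and 3 of 6 in MF, with median levels of -5.21 in iHep, 6.10 in PH and -5.90 in MF. The counts in iHep and MF differed by Ttr, at -5.72 and -6.64, and Fgb, at -5.67 and -6.19. Their MF readings lay near the lowest level called above background there, -6.30. All 6 read lower in iHep than in PH, Apoa1 was not above background in iHep, and Alb read -4.75 there against 6.67 in PH. Fibroblast markers had median levels of -1.50 in iHep, 1.41 in PH and 6.10 in MF. Their summed level put iHep, at 5.42, slightly above PH, with MF highest at 8.77, so the order of iHep and PH depended on the summary. Col1a1, at 4.62 in iHep, Col1a2 and Pdgfrb read higher in iHep than in PH, and Thy1, Postn and Dcn read lower. The PH array also carried 6 of 6 acinar pancreas markers, whose summed level was -1.46 in iHep, 8.34 in PH and -1.86 in MF, and all 5 matched macrophage markers, with a summed level of -2.03 in iHep, 6.16 in PH and 5.64 in MF. Endothelial markers summed to -0.72 in iHep, 5.23 in PH and -0.43 in MF. The 5 matched neutrophil markers summed to 2.06 in iHep, 5.85 in PH and -0.16 in MF. That iHep sum rested on Elane, at 2.03, and the neutrophil medians were -4.87 in iHep, 2.57 in PH and -3.55 in MF. The part of these other cells in the PH values of the 9 genes was not tested, and in pooled RNA fewer cells with a transcript and less transcript per cell cannot be told apart.

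All 9 genes were well above background in PH, 6 in iHep and 5 in MF. Of all 20573 named genes, 17375 were so in PH, 16357 in iHep and 14992 in MF. Ass1, Asl, Glul, Gls2 and Cps1 were read on every array, Nags on the iHep and PH arrays, and Otc, Arg1 and Arg2 in PH alone. The PH array stood highest for each of the 9 genes.

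**Figure D1:**
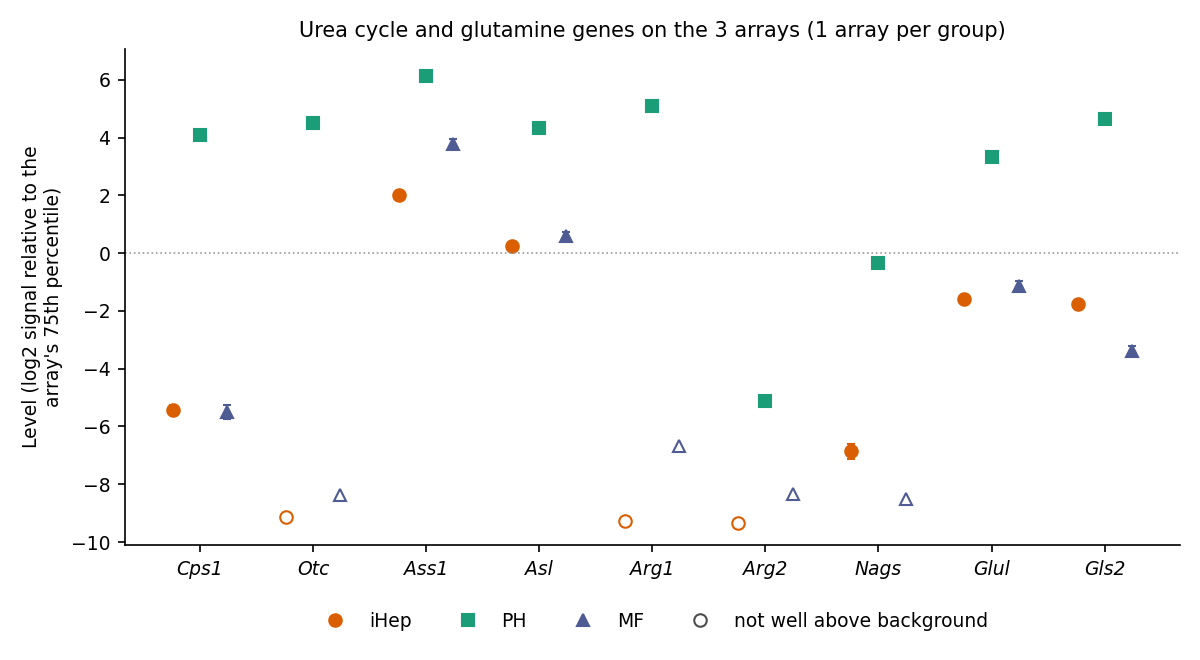
Level of each of the 9 genes on the iHep, PH and MF arrays, as log2 signal relative to the array's 75th percentile (dotted line at 0). Bars on filled points are the scanner software's error, and open points were not well above background. The PH square is the highest point of every gene, and iHep and MF lie close together for Cps1, Asl and Glul.

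The 3 mitochondrial steps read low in iHep, with Nags and Cps1 dim and Otc not above background. Nags, on chromosome 11, read -6.86 in iHep (a processed intensity of 32.4), -0.33 in PH (1657) and -8.52 in MF (1.48), where it was not well above background. It was 92.3-fold lower in iHep than in PH, and PH stood at least 62.9-fold above MF (3.12 on the log2 scale under normexp, against 5.98). Its iHep level lay below the lowest level any probe needed to be called on the dim MF array, -6.30, so no fold of iHep over MF was formed.

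Cps1, on chromosome 1 and the enzyme that commits ammonia to the cycle, had a level of -5.44 in iHep, 4.09 in PH and -5.51 in MF. These correspond to processed intensities of 86.6, 35339 and 12.0. The iHep and MF levels differed by 0.07 log2 units, less than the software's error of that difference, 0.30, while iHep was 735-fold lower than PH and PH 772-fold higher than MF. On the log2 distance that separates MF from PH, Cps1 in iHep had covered 0.735%. Under normexp the difference of iHep over MF turned to -1.46, or -0.79 less the shift of -0.67 that normexp gave the median of all genes. The normexp offset acts in that direction on a gene this dim, and its share was not tested. Over the genes measured on both arrays, as Cps1 was, the median of iHep over MF moved less, being -0.30 under normexp against -0.02. The difference of PH over MF was 7.01 under normexp, against 9.59 in the processed signals.

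Otc, on the X chromosome, was carried by a pair of probes. The brighter one read -9.12 in iHep, 4.51 in PH and -8.39 in MF, and the other, averaged over 9 or 10 printed spots, -9.40 in iHep, 1.03 in PH and -8.48 in MF, with a spot SD of 0.32, 0.03 and 0.08. Neither probe was well above background in iHep or MF. Otc was at least 3647-fold lower in iHep than in PH by the brighter probe and at least 327-fold lower by the other. PH stood at least 1798-fold and at least 161-fold above MF by the same probes, so the direction held for both probes while the size of the bound differed.

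Both enzymes that make arginine in the cytosol were read above the 75th percentile of every array, MF included. Ass1, on chromosome 2, makes argininosuccinate from citrulline and aspartate. Its brighter probe read 2.02 in iHep, 6.14 in PH and 3.79 in MF, and its other probe 1.95 in iHep, 6.15 in PH and 2.84 in MF. Ass1 was the only gene of the 9 at least 2-fold lower in iHep than in MF, at 3.41-fold by the brighter probe, and the other probe read 1.86-fold lower and so missed the 2-fold threshold. Both probes placed iHep below PH, by 17.3-fold and 18.4-fold, and PH above MF, by 5.07-fold and 9.88-fold.

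Asl, on chromosome 5, splits argininosuccinate into arginine and fumarate. It read 0.23 in iHep, 4.32 in PH and 0.59 in MF. iHep and MF differed by -0.36 on the log2 scale, with a software error of 0.20, a smaller difference than the SD between probes of 1 gene. Asl was 17.0-fold lower in iHep than in PH, and 13.3-fold higher in PH than in MF.

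The step that releases urea gave the largest bound of iHep against PH. Arg1, on chromosome 10 and the liver arginase that also marks some macrophages, read -9.27 in iHep, 5.09 in PH and -6.67 in MF, and was not well above background in iHep or MF. Its iHep level stood at least 5458-fold below PH, and PH stood at least 2691-fold above MF. The part of the macrophage markers, which summed to -2.03 in iHep, 6.16 in PH and 5.64 in MF, in the Arg1 values was not tested. Arg2, on chromosome 12, was dim throughout, at -9.32 in iHep, -5.13 in PH and -8.32 in MF, and only the PH reading was above background. Its bounds were at least 4.59-fold lower in iHep than PH and a PH level at least 2.26-fold above MF. That last bound was 0.00 under normexp and 0.04 on the log2 scale both under quantile normalization and in the authors' values, so Arg2 was not 2-fold higher than MF there. Between iHep and PH it read -0.87 in the authors' values, also short of 2-fold.

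Of both members that handle glutamine, Gls2 passed the 2-fold threshold between iHep and MF and Glul did not. Gls2, on chromosome 10, read -1.77 in iHep, 4.64 in PH and -3.38 in MF, with processed intensities of 1104, 51847 and 52.3. It was the only gene of the 9 at least 2-fold higher in iHep than in MF, at 3.06-fold, a log2 difference of 1.62 with a software error of 0.21. That difference rests on 1 probe, read from 1 spot per array, and the pooled SD between probes of a gene was 0.84 for these arrays. Gls2 had covered 20.1% of the log2 distance between MF and PH, and was still 84.7-fold lower in iHep than in PH, where it stood 259.5-fold above MF. Under normexp, whose offset weighs most on the dim MF reading, the difference of iHep over MF was 0.66, below the threshold. Less the shift of all genes it stood at 1.32, but over the genes measured on both arrays the median moved less under normexp, being -0.30 there against -0.02.

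Glul, on chromosome 1, read -1.58 in iHep, 3.33 in PH and -1.12 in MF. The difference of iHep over MF was -0.46 on the log2 scale with a software error of 0.20, again smaller than the SD between probes, while Glul was 30.0-fold lower in iHep than in PH and 21.8-fold higher in PH than in MF.

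Of the 6 members above background in iHep or MF, 1 was at least 2-fold higher in iHep than in MF and 1 was lower, when 19.9% of 17087 genes were higher and 23.4% lower. The other 4 passed neither threshold, and among them Nags gave no fold. Over the 5 members measured on both arrays the median log2 difference was -0.36, against -0.02 over the 14135 genes so measured. With Nags as read, which rests on its MF reading below background, the median was -0.14. In PH over MF 9 of 9 were higher and 0 lower, when 30.8% of 17718 genes were higher and 25.4% lower, and the median was 8.02 as read and 5.98 with bounds, against 0.12 and 0.04 over all genes. Nags, Otc, Arg1 and Arg2 were not above background in MF, so there they could only count as higher or give no fold. Over the 5 members measured on both arrays the median was 4.44, against -0.18 over the 14548 genes so measured. In iHep over PH 0 of 9 were higher and 9 lower, when 23.3% of 17922 genes were higher and 35.9% lower. The median was -6.40 there, against -0.30 over all genes. Otc, Arg1 and Arg2 were not above background in iHep, so against PH they could only count as lower or give no fold. Over the 6 members measured on both of these arrays the median was -5.65, against -0.15 over the 15676 genes so measured. Normexp made the gaps to PH smaller without turning any, with log2 differences of iHep over PH of -8.47 for Cps1, -5.00 for Nags, -6.16 for Gls2, and bounds of -9.99 for Otc and -10.75 for Arg1. The iHep and PH comparisons with MF share the MF array, and the members were chosen for their liver role, so the PH counts describe the positive control.

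**Figure D2:**
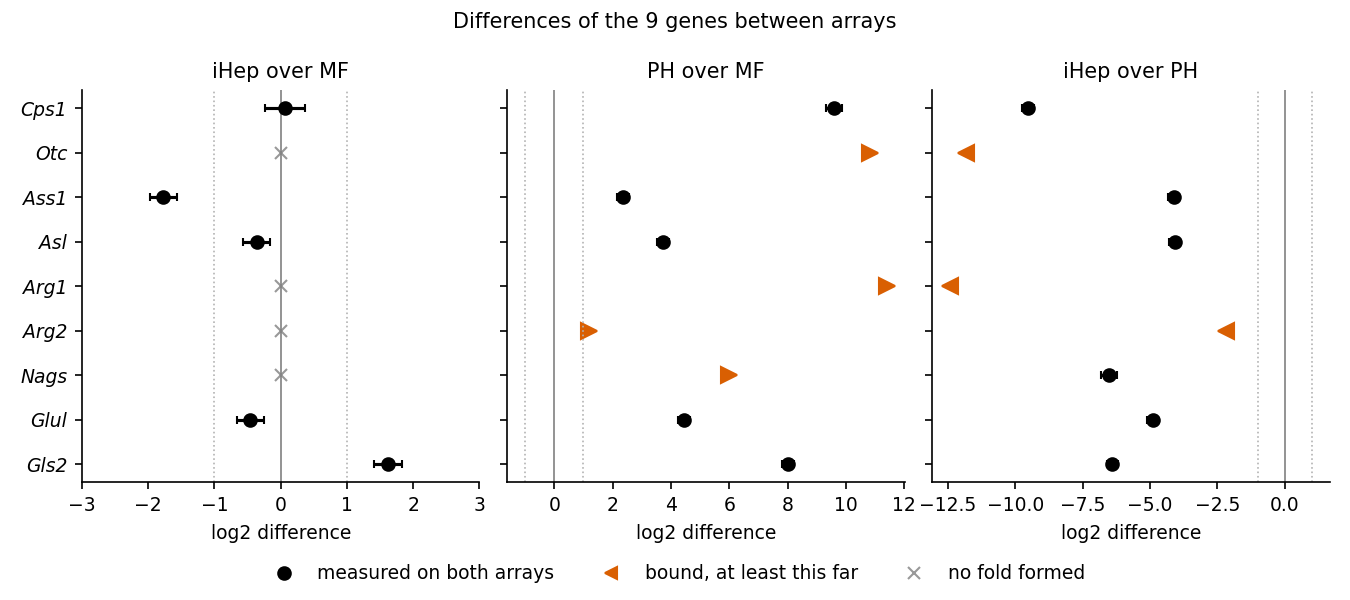
Log2 differences of the 9 genes in 3 panels, iHep against MF at the left, PH against MF in the middle and iHep against PH at the right. Dots with bars are differences measured on both arrays with the software's error, triangles are bounds, crosses at 0 mark genes with no fold, and dotted lines mark 2-fold. In the left panel Ass1 and Gls2 lie outside the 2-fold lines on opposite sides, and every gene lies left of -1 in the right panel.

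Across the 13924 genes read on all 3 arrays, the 5 members present lay to the PH side of the line on which iHep and PH would differ equally from MF. Ass1, Glul and Asl sat on the far side of MF from PH, at -75.6%, -10.4% and -9.63% of the log2 distance between MF and PH, where a negative share means that iHep read lower than MF. Only for the brighter Ass1 probe was that displacement over 2-fold, and by the other Ass1 probe the share was -27.1%.

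**Figure D3:**
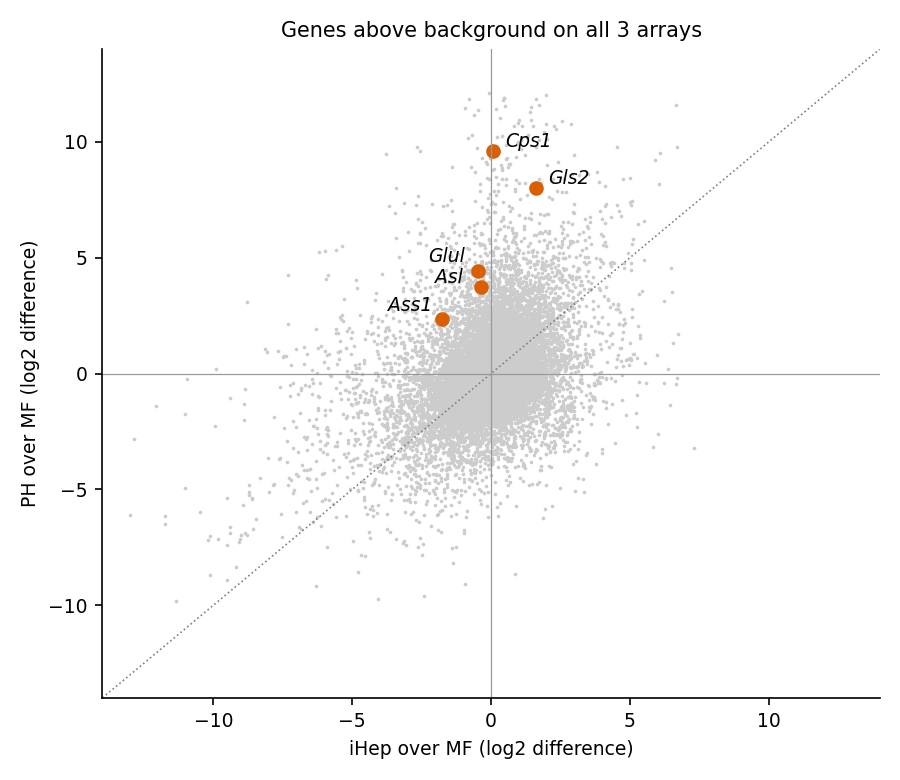
Each grey point is 1 of 13924 genes above background on all 3 arrays, with its log2 difference of iHep over MF on the horizontal axis and of PH over MF on the vertical axis. The dotted line marks equal differences and orange points are the 5 members read on all arrays, all of them above that line, with Cps1 near 0 on the horizontal axis.

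Upstream sequence is shown to set Otc, read in PH alone, beside Nags, read in iHep and PH, and Glul and Ass1, read on every array. RefSeq promoter windows (build GRCm38.p6) matched 4 of the 9 genes, and the 250 bases before the start are shown 5′ to 3′ with each CG dinucleotide in capitals, the feature by which the 4 windows differed most plainly.
Otc, chrX:10252055-10252304, + strand: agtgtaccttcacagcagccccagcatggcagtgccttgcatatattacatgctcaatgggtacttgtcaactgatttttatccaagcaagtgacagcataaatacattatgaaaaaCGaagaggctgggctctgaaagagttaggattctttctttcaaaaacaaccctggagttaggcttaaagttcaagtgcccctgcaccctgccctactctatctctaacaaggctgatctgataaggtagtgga
Nags, chr11:102145263-102145512, + strand: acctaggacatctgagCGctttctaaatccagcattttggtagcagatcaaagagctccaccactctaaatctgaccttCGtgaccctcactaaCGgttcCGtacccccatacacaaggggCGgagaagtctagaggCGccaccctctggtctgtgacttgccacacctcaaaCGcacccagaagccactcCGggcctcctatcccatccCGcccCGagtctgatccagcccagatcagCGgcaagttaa
Glul, chr1:153899679-153899928, + strand: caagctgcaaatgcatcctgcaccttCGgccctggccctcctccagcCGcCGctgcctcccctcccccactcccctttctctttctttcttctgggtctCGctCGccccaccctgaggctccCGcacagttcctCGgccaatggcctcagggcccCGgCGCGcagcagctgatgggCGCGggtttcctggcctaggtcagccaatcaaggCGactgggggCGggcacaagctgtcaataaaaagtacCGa
Ass1, chr2:31470020-31470269, + strand: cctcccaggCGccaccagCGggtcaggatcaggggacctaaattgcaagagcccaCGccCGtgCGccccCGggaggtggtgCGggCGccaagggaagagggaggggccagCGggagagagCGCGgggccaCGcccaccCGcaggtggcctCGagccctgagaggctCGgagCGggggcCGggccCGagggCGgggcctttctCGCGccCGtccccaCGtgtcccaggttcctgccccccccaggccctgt
The Otc window held 1 CG and 43.6% G and C, and 7.87% of the 32851 windows held fewer CG, with a median of 6. Nags held 11, Glul 15 and Ass1 23, and Ass1 had 75.6% G and C. The letters GGGCGG, searched on both strands, occurred 1 time in Ass1, 2 times in Nags and 1 time in Glul, and in 32.7% of all windows. CCAAT occurred 2 times in Glul and in 33.8% of all windows, while TATAAA was in none of the 4 and in 12.4% of all. With 4 genes this is a description of the windows, and their order by CG count is not a test against expression.

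Genes around the members were taken from 8 lists, some sharing genes, and are counted at the same 2-fold threshold, at which 19.9% of all genes were higher and 23.4% lower in iHep than in MF, and 23.3% higher and 35.9% lower in iHep than in PH. Of 9 carriers and partners of the urea cycle, 1 was higher in iHep than in MF and 0 lower among 8 compared, and 0 were higher and 8 lower in iHep than in PH. Slc25a15, which carries ornithine to Otc, read -3.26 in iHep, 0.95 in PH and -4.10 in MF, and its difference of iHep over MF, 0.84, turned to -0.35 under normexp. Car5a, the mitochondrial carbonic anhydrase that supplies bicarbonate to Cps1, read -4.71 in iHep and 1.31 in PH, and was not above background in MF. It stood at least 3.01-fold above MF in iHep, a bound that fell away under normexp (0.00 on the log2 scale), and was 65.1-fold lower in iHep than in PH.

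Other enzymes of arginine and ornithine gave counts in both directions, as all genes did. Of 18 measured, 6 were higher and 6 lower in iHep than in MF, and 6 were higher and 8 lower in iHep than in PH. Nos2, the inducible nitric oxide synthase, which uses the arginine that Ass1 and Asl make, read 0.65 in iHep, -3.93 in PH and -4.59 in MF, 37.7-fold higher in iHep than in MF (3.43 on the log2 scale under normexp, against 5.24). Gatm and Gamt, the successive enzymes of creatine synthesis from arginine, stood at least 21.1-fold and 7.08-fold below MF in iHep, and the Gatm bound was -3.48 on the log2 scale under normexp, against -4.40.

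Among 24 other glutamine, glutamate and ammonia enzymes, 6 were higher and 4 lower in iHep than in MF, and 7 were higher and 15 lower in iHep than in PH. Glud1, which releases ammonia from glutamate, was 2.16-fold lower in iHep than in MF (-0.93 on the log2 scale under normexp, short of 2-fold) and 6.26-fold lower than in PH. Psat1 of serine synthesis and Asns, which makes asparagine with nitrogen from glutamine, stood 60.2-fold and 11.1-fold above PH in iHep, and the other Psat1 probe read 4.15 on the log2 scale. The 9 glutamine amidotransferases, which take that nitrogen for nucleotides and amino sugars, had 3 genes higher and 1 lower in iHep than in MF, and 2 higher and 1 lower in iHep than in PH.

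**Figure D4:**
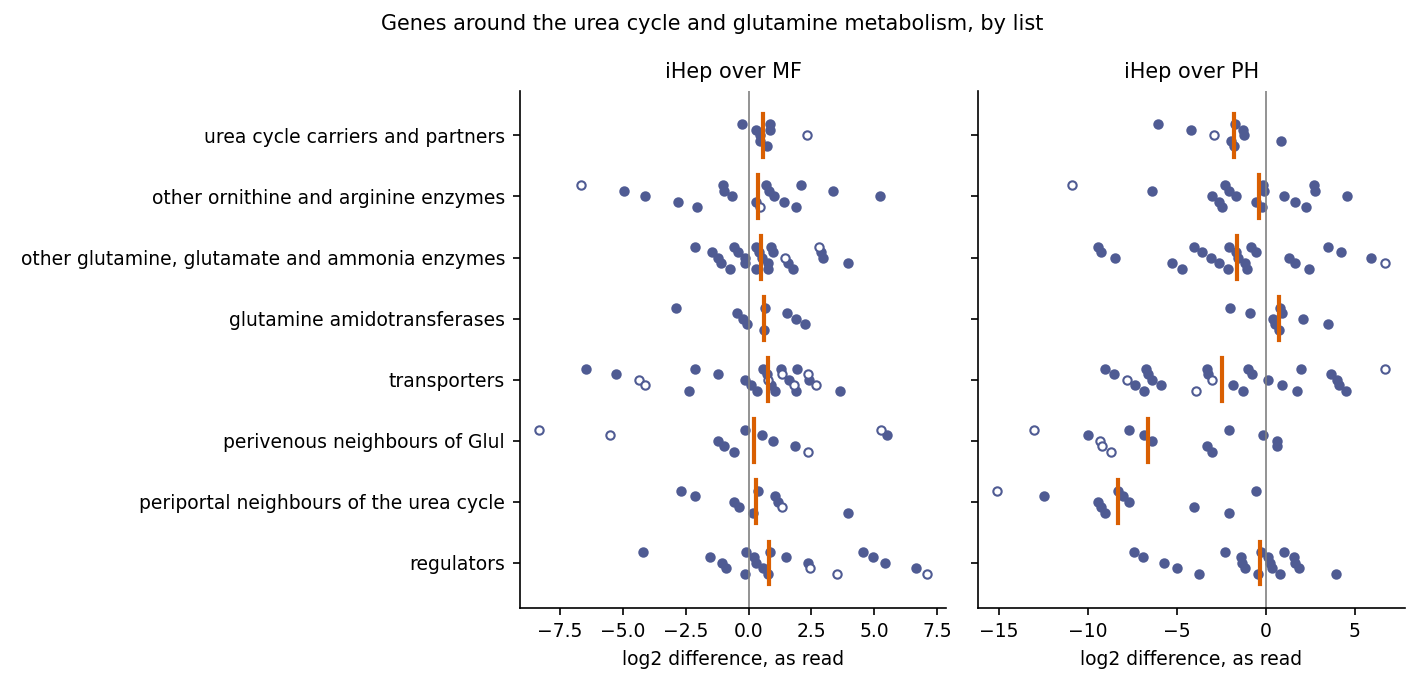
Log2 differences, as read, of the genes in the 8 lists for iHep over MF and iHep over PH. Filled points were measured on both arrays, open points were above background on 1 of them, and orange bars are list medians. The periportal and perivenous lists lie far to the left in iHep over PH, with medians of -8.30 and -6.60, and the amidotransferase median, 0.77, lies to the right of 0.

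Of the transporters of glutamine, glutamate, arginine, urea and ammonia, 9 of 25 were higher and 7 lower in iHep than in MF, and 7 of 26 were higher and 16 lower in iHep than in PH. Slc7a1, the widely expressed arginine carrier, was 22.8-fold higher in iHep than in PH, and Slc7a2, the arginine carrier of liver, 367-fold lower (-6.87 on the log2 scale under normexp, against -8.52). Slc1a5, a glutamine carrier of proliferating cells, was 12.6-fold higher, and Slc38a3, the glutamine carrier of hepatocytes that supplies Gls2, 513-fold lower (-8.26 on that scale under normexp). These 4 were chosen after their values were seen, and not every widely expressed carrier stood above PH. Slc38a1, a further such glutamine carrier, read 2.02-fold lower in iHep than in PH, and between -1.16 and -0.63 on the log2 scale over the settings run.

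Most genes that share a liver zone with the members were at least 2-fold lower in iHep than in PH. Of 14 perivenous neighbours of Glul, 4 were higher and 3 lower in iHep than in MF among 12 compared, and 0 were higher and 11 lower in iHep than in PH. The other 3, Tbx3, Rnf43 and Znrf3, were within 2-fold of PH, with log2 differences of -0.17, 0.62 and 0.61. Of 11 periportal neighbours of the urea cycle, 3 were higher and 2 lower in iHep than in MF among 10 compared, and 0 were higher and 10 lower in iHep than in PH, with Sdsl within 2-fold at -0.56. Of 20 regulators of these enzymes, 8 were higher and 3 lower in iHep than in MF, and 5 were higher and 9 lower in iHep than in PH. Cebpa, a factor that drives urea cycle genes in mouse liver, read -5.76 in iHep, 1.61 in PH and -1.56 in MF, 18.4-fold lower in iHep than in MF (-3.54 on the log2 scale under normexp, against -4.20). Hnf4a, another such factor, was 101-fold higher in iHep than in MF (4.15 under normexp, against 6.66) and 31.0-fold lower than in PH.

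For each member read on all arrays, the 3 genes nearest in the pair of differences over MF were found among 13923 others, over 3 arrays. Those nearest Cps1 were Serpina1c, Cyp2a4 and Serpina1e, at distances between 0.21 and 0.26 log2 units, all from families with near-identical copies whose probes may share signal. Those nearest Gls2 were Cfb, Fam25c and Apoa5, between 0.27 and 0.45. Asl lay nearest to Trpm5, Pglyrp2 and Aldh1b1, Glul to Aifm3, Vcan and Slc10a7, and Ass1 to Unc93a, Wwc1 and Lpin1, all within 0.13. With 3 arrays such likeness describes level patterns and nothing more.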

How the data were processed

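Gene expression was measured on 3 one-colour (Cy3) Agilent arrays, 1 per group. The deposited scanner files hold spot intensity on a linear scale, background-subtracted and detrended within each array and not normalized between arrays, made with Feature Extraction 11.0.1.1 per the file headers (the submitters' processing notes name 9.1). RNA came from a blood RNA kit with globin depletion, per the labels' protocols. The authors also deposited log2 values for 26049 probes, with normalization and centring unstated. They correlated with the scanner levels at 0.998, 0.994 and 0.997 for iHep, PH and MF, had medians of 7.01, 7.07 and 7.02, and lack Cps1. They served as an alternative.

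From each log2 processed intensity the array's own 75th percentile was subtracted. Controls and outlier spots (230, 383 and 190 on iHep, PH and MF) were left out, no spot was saturated, and repeated spots were averaged. Probes were named by unversioned transcript accession in a RefSeq table of GRCm38.p6 (27070 of 39181 named). The array design is annotated on mm9, so no probe coordinates are given. A gene's probe with the highest mean level was used, and a gene counts as above background where any of its probes does. Where 1 side was not well above background the fold is a bound, "at least" N-fold, formed on the dim side from whichever was greater, its own reading or the smallest level called above background on that array (-7.32, -6.89 and -6.30 for iHep, PH and MF). Calls used a fixed 2-fold threshold. The number of arrays limits the precision.

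Alternatives were normexp (limma 3.58.1 in R 4.3.3, offset 50) on median signals, quantile normalization, the authors' values, scaling on the probes that every array detected, other filters on dim probes, a gene's mean or dimmest probe, and a 4-fold or 1.5-fold threshold. Calculations used Python 3.11.15, and the comparison code was tested on simulated data. All 9 genes are named whatever their values, and genes of the fixed lists may be named. The members and lists were chosen with earlier results of these data known.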

Additional observations from a re-analysis of the deposited data

How the results depend on the processing

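No paired analysis was possible because each group has 1 array, and for the same reason no replicate could be left out. In iHep over MF, the members at least 2-fold higher (1) became 0 under normexp, 2 with no filter on dim probes and 0 at a 4-fold threshold. Those at least 2-fold lower (1) became 2 under normexp, 3 with no filter, and 0 both with the dimmest probe of each gene and at 4-fold. Their median as read, -0.14, became -1.07 under normexp and -0.46 with no filter. The normexp value counts Nags as read against an MF reading below background, and was -0.52 with Nags held at its bound and -0.68 over the 5 members measured on both arrays. In PH over MF the 9 higher members became 5 when only probes above background on both arrays were kept, since 4 genes then dropped out. The median of 8.02 became 4.11 under normexp, 7.61 under quantile normalization, 5.77 in the authors' values, which lack Cps1, and 4.44 with that filter. In iHep over PH the median of -6.40 became -5.00, -5.97, -5.28 and -5.65 in the same settings. Where no cause is named it was not tested. The count of members lower in iHep than PH stayed between 6 and 9 of those compared. Of the members' log2 differences under these alternatives, 38 of 39 kept their sign in iHep over MF (Nags, with no fold, left out), 66 of 67 in PH over MF and 68 of 68 in iHep over PH. Many of these values could not change. For a member with 1 probe, the mean and dimmest-probe settings return the main value. Where its probe was above background on both arrays, the filter settings do so too. The median of all genes in iHep over MF shifted by -0.67 under normexp, 0.10 with quantiles and 0.08 in the authors' values. It shifted by -0.63, -0.31 and -0.32 in PH over MF, and by -0.07, 0.51 and 0.52 in iHep over PH. The share of higher genes among all called in iHep over MF was 45.9%, against 30.1% under normexp. In PH over MF it was 54.8%, against 38.4% with normexp, 43.1% with quantiles and 41.9% as the authors deposited. In iHep over PH it was 39.3%, against 55.0% and 55.8% in those last settings. The normexp values over MF also carry the effect of its offset on dim genes, whose share was not tested. The dim MF array limits what can be said of low levels there.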
